A study of Capra hircus with 3 samples.

Results

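The growth hormone and somatostatin axis was represented on the sheep array by 7 genes, GHRHR, GHR, GH, SST, SSTR2 and the records named SST1 and SST5, out of 14363 sheep identifiers. The members were chosen by gene name and description. GHRHR, GHR, SST and SSTR2 were put forward with their ratios on these same arrays in view, so the ratios of the members are described here and carry no test. The 7 genes had 11 probes on 15 spots. SST1 and SST5 are the array's names for the somatostatin receptors of subtypes 1 and 5, not for the hormone, and are called SSTR1 and SSTR5 below. The releasing hormone GHRH was listed under a locus name with 2 probes that the choice by name did not reach, because its description is hyphenated, and it was added as the ligand of GHRHR.

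Skin from one side of the body was compared between 6 adult female Arbas Cashmere goats (*Capra hircus*), given as 2 years old, of which 3 lived under a short photoperiod and 3 under natural conditions. Daylight for the short photoperiod goats was limited to a grazing period that began at 9:30 and ended at 16:30, outside of which a shed kept them at about 0.1 lux and 1 degree below the outdoor temperature. The control goats had natural light. Each of 3 two-colour arrays paired a goat of the short photoperiod, labelled with Cy5, with a control goat of the same parent, labelled with Cy3. The dyes were not swapped, so that the dye bias of a probe and the photoperiod cannot be told apart, and temperature and feeding hours differed together with the light. The 3 arrays lay on 1 slide, and their number limits the precision of every value.

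Growth hormone is released by the anterior pituitary, where GHRH from the hypothalamus drives its secretion through the G protein-coupled receptor GHRHR and cyclic AMP, and somatostatin restrains it through a family of receptors that inhibit adenylyl cyclase. Growth hormone acts on other tissues through GHR, which signals by JAK2 and STAT5 and raises IGF1. Both arms also occur outside the pituitary. In skin, GHR is known in fibroblasts and hair follicles, and IGF1 from the dermal papilla supports hair growth.

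All probes were 60 bases long and were designed on sheep records, so that mismatches with goat RNA were not examined. The probes of GHRHR and SSTR2, the receptors with the largest ratios, of their ligands, of GH and of SSTR5 are printed below, because each ratio rests on what its probe reads. The capitals in SSTR2 mark the codons of the asparagine-proline motif of the seventh membrane helix, and those in SST mark the stop codon.
GHRHR: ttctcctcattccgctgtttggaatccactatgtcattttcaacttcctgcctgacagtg
GHRH, first probe: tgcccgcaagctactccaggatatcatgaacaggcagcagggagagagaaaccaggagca
GH, first probe: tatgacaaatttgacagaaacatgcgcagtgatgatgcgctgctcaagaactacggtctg
SSTR2: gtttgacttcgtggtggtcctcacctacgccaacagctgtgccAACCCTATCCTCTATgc
SSTR5, first probe: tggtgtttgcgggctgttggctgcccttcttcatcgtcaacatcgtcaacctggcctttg
SST, first probe: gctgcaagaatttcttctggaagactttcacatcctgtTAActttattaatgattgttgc
The SST probe covered 12 codons before the stop, within the stretch that encodes the secreted peptide, and 19 bases after it. The second probes of GH, SSTR1, SSTR5 and SST were shifted by 1 base from the first and shared 59 bases with it, and those of GHRH were shifted by 2 bases and shared 58, so paired probes are not independent measurements of a gene. GHRHR, SSTR2 and GHR had a single probe on a single spot. Of the printed probes, none shared more than 13 consecutive bases with a probe of another record on the array. The GHR probe had a stop codon in all forward frames and is not shown.

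A probe was taken as measured where Feature Extraction, the scanner software, marked it as well above background in Cy3 and in Cy5 on every array. For a probe on several spots, any spot so marked was enough. This was so for 9 of the 11 member probes, which covered 6 of the 7 genes, and for both GHRH probes. The exception was GH itself, whose first probe lay on 5 spots. None of the 30 readings of these spots, and none of the 6 readings of the second probe, was well above background. The GH signal was 1.75 to 2.37 times the local background in Cy3 and 1.39 to 1.83 times in Cy5. GH was thus not well above background in either photoperiod, no ratio is given for it, and GHR could not be set beside its ligand.

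**Figure D1:**
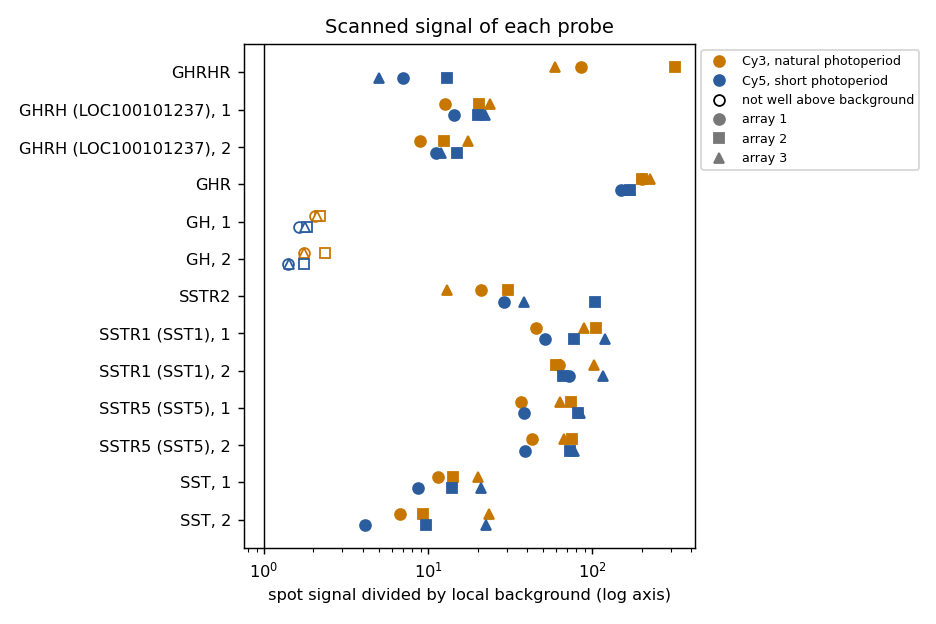
Mean spot signal divided by the local background (log axis) for each probe of the receptors and ligands, in Cy3 for the natural and Cy5 for the short photoperiod, 1 symbol per array. Open symbols are not well above background. The GH probes stay between 1.39 and 2.37, and every other probe is above 4.

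GHRHR, the receptor of the releasing hormone, was lower under the short photoperiod in all 3 pairs of goats. Its spot read 1925, 7433 and 1368 units of scanned intensity in the natural photoperiod samples and 263, 558 and 211 units in the short photoperiod samples of replicates 1, 2 and 3. After normalization its log2 level was 11.68, 13.09 and 10.48 in the natural and 8.18, 8.64 and 7.23 in the short photoperiod goats. The groups did not overlap, and the short photoperiod goats were the low ones. The log2 ratio, short over natural photoperiod, was -3.50, -4.46 and -3.24, which is 11.3-fold, 22.0-fold and 9.47-fold lower. The mean log2 ratio was -3.73 ± 0.64 (SD, n = 3), or 13.3-fold lower. It ranked 1 from the lowest among the 14977 tested probes.

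The level of GHRHR also differed within each group, whose goats lay on different arrays, so that goat, array and spot cannot be told apart. It spanned 2.62 log2 units among the 3 natural photoperiod goats, where the median span over 13562 measured probes was 0.49 and 0.597% of the probes spanned more. Among the short photoperiod goats it spanned 1.40, and 4.25% of the probes spanned more. Replicate 2 held the goats with the highest GHRHR level in both groups and the largest decrease. The 24 spots around the GHRHR spot had a median log2 ratio of 0.03, -0.10 and -0.10 on the 3 arrays. The lowest of these spots read -1.11. They carry other probes, and an artefact of the single GHRHR spot was not tested.

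GHRH, the ligand of GHRHR, had ratios near 0 after loess. The first probe read -0.01 ± 0.09 and the second -0.01 ± 0.13 (SD, n = 3) on the log2 scale. Its individual ratios lay between -0.16 and 0.08, and its levels in the 2 groups overlapped. With median centring both probes were below 0 on all 3 arrays, with means of -0.19 and -0.24. GHRHR minus GHRH, in log2 ratio, was -3.57, -4.50 and -3.11 on the 3 arrays, with a mean of -3.72 ± 0.71. No ratio of the ligand came near that of its receptor on any array.

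**Figure D2:**
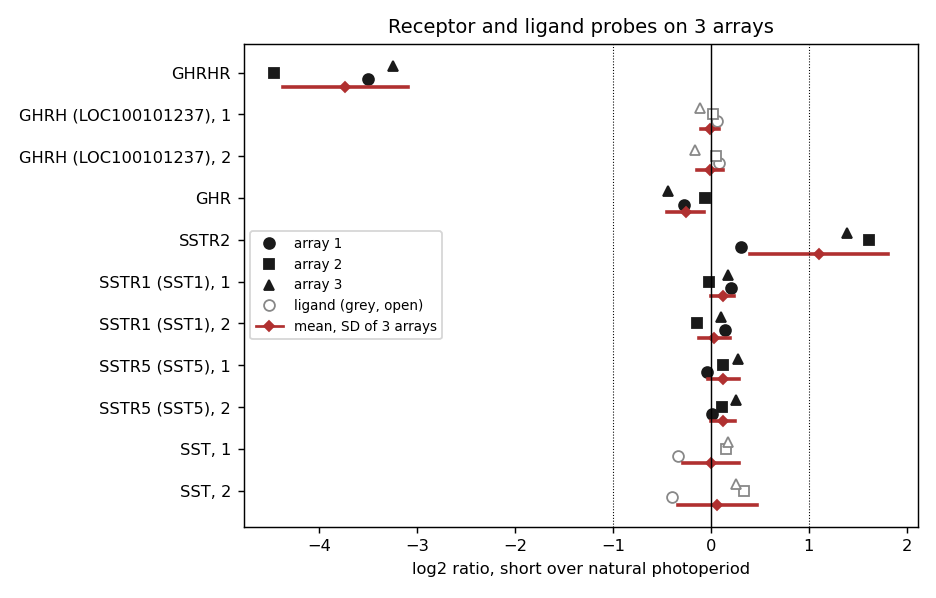
Log2 ratio of the short over the natural photoperiod for each measured probe, with 1 symbol per array and the mean ± SD of 3 arrays in red. Filled symbols are receptors, open grey symbols are ligands, and dotted lines mark a 2-fold change. GHRHR lies left of the lower line on every array, SSTR2 right of the upper line on 2 arrays, and the other probes between the lines.

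SSTR2, the somatostatin receptor of subtype 2, was higher under the short photoperiod in all 3 pairs, by amounts that differed between them. Its spot read 443, 644 and 275 units in the natural and 922.5, 3340.1 and 1149.8 units in the short photoperiod samples. The normalized log2 level was 9.62, 9.61 and 8.25 in the natural and 9.92, 11.23 and 9.64 in the short photoperiod goats. The groups did not overlap, but the lowest goat of the short photoperiod, with 9.64, lay next to the highest of the natural photoperiod, with 9.62. The log2 ratio was 0.30, 1.62 and 1.39, which is 1.23-fold, 3.07-fold and 2.62-fold higher. The mean was 1.10 ± 0.70 (SD, n = 3), or 2.15-fold, and it ranked 44 from the highest. It stayed above 2-fold only with replicates 2 and 3 both included, being 0.85 without replicate 2 and 0.96 without replicate 3, and it was 0.94 with median centring in place of loess. The 18 spots around the SSTR2 spot had median ratios of 0.16, 0.05 and 0.18 on the 3 arrays, and the highest neighbour, on replicate 3, reached 2.22.

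**Figure D3:**
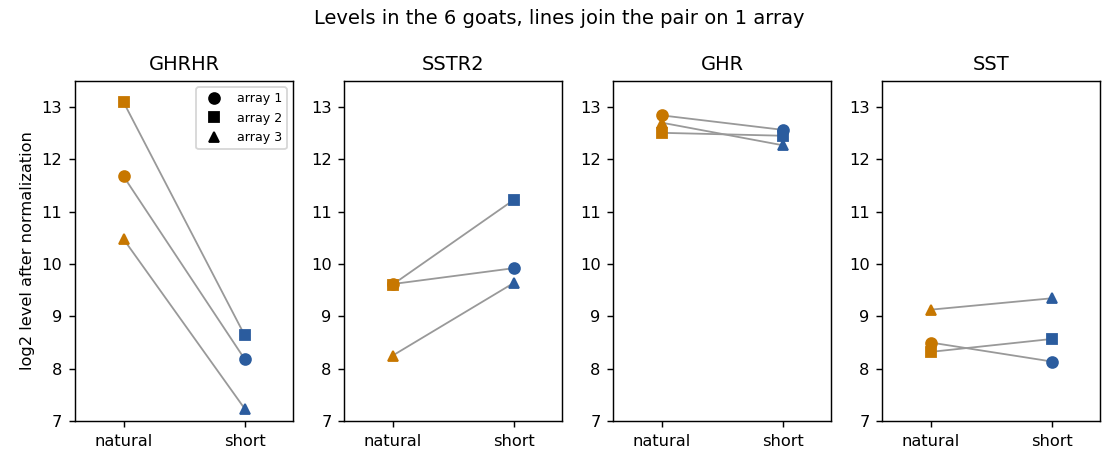
Normalized log2 level of GHRHR, SSTR2, GHR and SST in the 3 natural (orange) and 3 short (blue) photoperiod goats, with lines joining the pair on 1 array. SST is the mean of its 2 probes, and levels of different genes are not comparable. GHRHR is lower and SSTR2 higher at the short photoperiod end of all 3 lines, GHR is slightly lower in all 3, and the SST lines run both ways.

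The other somatostatin receptors stayed close to a ratio of 0. The SSTR1 probes had log2 ratios of 0.21, -0.02 and 0.17 and of 0.15, -0.14 and 0.10, with means of 0.12 ± 0.12 and 0.04 ± 0.16 (SD, n = 3). The SSTR5 probes had ratios of -0.03, 0.13 and 0.28 and of 0.01, 0.12 and 0.25, with a mean of 0.13 for both and SDs of 0.16 and 0.12. Replicate 2, in which SSTR2 was highest, was the array on which both SSTR1 probes were below 0. SSTR2 minus the mean of SSTR1 and SSTR5 was 0.22, 1.60 and 1.19 on the 3 arrays, with a mean of 1.00 ± 0.71, so on replicate 1 the receptors differed little. The mean of the second SSTR1 probe changed sign, to -0.03, with median centring.

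SST, the ligand that these receptors share, showed no uniform direction. Its first probe had log2 ratios of -0.33, 0.15 and 0.18 and its second of -0.39, 0.34 and 0.26. The means were 0.00 ± 0.29 and 0.07 ± 0.40 (SD, n = 3), and the levels of the 2 groups overlapped. The mean over both probes was 0.03, and it turned to -0.19 with median centring and to 0.23 without replicate 1. The SST ratio was lowest on replicate 1, the array with the smallest SSTR2 ratio. On that array the second SST probe was dim, with 154 units in Cy3 and 189 in Cy5. The Cy5 reading was 4.12 times the local background, and Feature Extraction's log ratio put the probe at -0.69 there. SSTR2 minus SST was 0.67, 1.37 and 1.17 on the 3 arrays, with a mean of 1.07 ± 0.36. Between SSTR1 and SST the mean difference was 0.04 ± 0.45, and between SSTR5 and SST it was 0.09 ± 0.24, both smaller than their spread over the arrays.

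GHR, through which growth hormone acts on the skin, was slightly lower in all pairs. Its spot read 4396 to 5645 units in the natural and 6299 to 8140.1 units in the short photoperiod samples, before the 2 dyes were scaled to each other. Its normalized log2 level was 12.84, 12.51 and 12.70 in the natural and 12.57, 12.45 and 12.27 in the short photoperiod goats, and the groups overlapped. The log2 ratio was -0.28, -0.06 and -0.43, with a mean of -0.26 ± 0.19 (SD, n = 3), which is 1.19-fold lower. Within a group the GHR level spanned 0.33 and 0.29 log2 units over goats and arrays together, against 2.62 and 1.40 for GHRHR.

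Of the 9 measured member probes, 1 was at least 2-fold higher and 1 at least 2-fold lower in its mean, where 0.427% of the 14977 tested probes were at least 2-fold higher and 0.427% at least 2-fold lower. Median centring gave 293 higher and 78 lower probes over the array, in place of 64 and 64, and the authors' value table gave 358 and 116. Further counts describe how uniform the members were. Higher on all 3 arrays were 2 of the 9, SSTR2 and the second SSTR5 probe, against 21.4% of all tested probes, and lower on all 3 were 2, GHRHR and GHR, against 21.9%. The second SSTR5 probe was below 0 on replicate 1 with median centring. The levels of the 2 groups did not overlap for GHRHR and SSTR2, 2 of 9, against 13.9% of all tested probes. These counts come from the ratios known when the genes were chosen and nothing is read from them. As technical spread, over 229 pairs of probes of 1 record sharing at least 50 bases, the mean ratios over the arrays differed by a median of 0.04 and a 95th percentile of 0.19 log2 units, and 40 probes with at least 3 spots had a median SD of 0.05 between spots of 1 array and a maximum of 0.20. These values cover neither labelling and dye nor differences between goats.

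**Figure D4:**
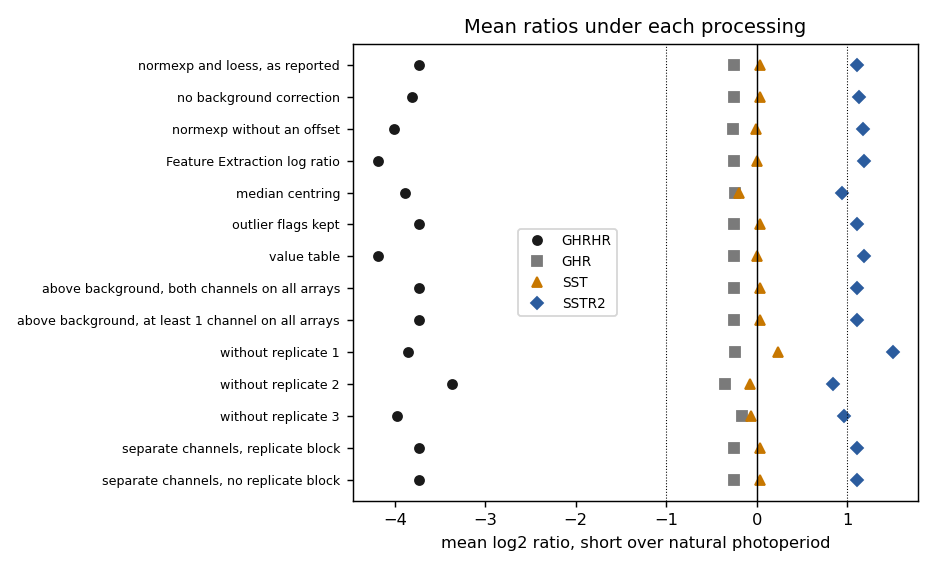
Mean log2 ratio of GHRHR, GHR, SST and SSTR2 under the reported processing and 13 alternatives. Dotted lines mark a 2-fold change. GHRHR stays between -4.18 and -3.37, GHR between -0.35 and -0.17, SSTR2 between 0.85 and 1.50, and SST crosses 0.

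Genes that work beside these receptors were taken as 4 lists, which together had 57 probes for 30 genes on the array, 45 of them measured, for 26 genes. Limma with Benjamini-Hochberg adjustment over all tested probes called 0 of the 45, where 1 probe on the whole array, that of CYP1A1, was called (0.00668% of the tested probes). The lowest adjusted p among the 45 was 0.157. An unadjusted p under 0.05 was found for 6 higher and 4 lower probes, 22.2% of the 45, against 18.5% of all tested probes. Of the other fits, the separate channels called 1 of the 45, a GCG probe, where 161 of 14868 probes on the array were called. Median centring called 5 of the 45, of POMC, GCG, GNAS and MC1R, where 1885 of 14977 probes were called. Nothing is read from these calls. None of the 45 changed 2-fold in its mean. Their median log2 ratio was -0.01, as was that of all tested probes.

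Signalling downstream of GHR was read by 12 probes of 8 genes, all measured, with a median log2 ratio of -0.17. Called were 0 of 12, and 2 were lower at an unadjusted p under 0.05. IGFBP3, which carries IGF1 in the circulation, had 3 probes with means of -0.18, -0.36 and -0.63, and the lowest of them was -0.05 with median centring. STAT5A, a transducer of GHR signalling, read -0.20 ± 0.30 and -0.16 ± 0.26, and STAT5B was not found on the array by name. IGF1 had ratios of -0.80, 0.29 and -0.21, mean -0.24 ± 0.54, and its direction differed between pairs. The most positive were CISH, a feedback inhibitor of cytokine receptors, with 0.12 ± 0.21, and 1 probe of the IGF1 receptor with 0.06, which was -0.13 with median centring.

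Control of growth hormone secretion was read by 22 probes of 9 genes, of which 14 were measured, with a median of 0.01 (-0.21 with median centring). Called were 0 of 14, and 1 was higher at an unadjusted p under 0.05. NPY, a neuropeptide, had ratios of 1.88, -0.12 and -0.23 at its first probe, so its mean of 0.51 ± 1.19 came from replicate 1. Leptin had means of -0.42 ± 0.55 and -0.33 ± 0.60, and ghrelin, the ligand of the receptor GHSR, -0.24 ± 0.28 and -0.24 ± 0.35. GHSR itself was well above background on 2 arrays in Cy3 and 1 in Cy5, and no ratio is given for it.

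The G protein and cyclic AMP arm, which GHRHR stimulates and somatostatin receptors inhibit, was read by 10 probes of 5 genes, all measured, with a median of -0.06. Called were 0 of 10, and at an unadjusted p under 0.05 there were 2 higher and 1 lower. Both higher probes belonged to PRKACA, the catalytic subunit of protein kinase A, with ratios of 0.58, 0.37 and 0.58 at the first and means of 0.51 ± 0.12 and 0.59 ± 0.24 (limma adjusted p = 0.164 and 0.166). The lower one was 1 of 4 probes of CREM, a transcription factor of the cyclic AMP response, with -0.31 ± 0.11. The other CREM probes had means of -0.16, -0.11 and 0.08. GNAS, the stimulatory G protein subunit, read 0.03 ± 0.10 with loess and 0.72 with median centring. The CREB probes, for another factor of that response, read -0.09 and -0.06, and the regulatory subunit PRKAR1A -0.07.

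Other peptide hormones and their receptors were read by 13 probes of 8 genes, 9 of them measured, with a median of 0.22 (-0.13 with median centring). Called were 0 of 9, and at an unadjusted p under 0.05 there were 3 higher and 1 lower. POMC, the precursor of corticotropin and melanocyte-stimulating hormone, had ratios of 0.56, 0.71 and 0.94 at its first probe and means of 0.74 ± 0.19 and 0.67 ± 0.22 (limma adjusted p = 0.157 for both). Glucagon had 0.71 ± 0.11 at one probe (limma adjusted p = 0.157) and 0.25 ± 0.40 at the other. MC1R, the melanocortin receptor of pigment cells, had -0.30 ± 0.07 (limma adjusted p = 0.227), and MC2R -0.21 ± 0.20. PAC1R, a receptor of the same class as GHRHR, read 0.22 and 0.08, and both of its probes were below 0 with median centring. GLP1R, of the same class too, read -0.02 ± 0.02 at its measured probe.

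**Figure D5:**
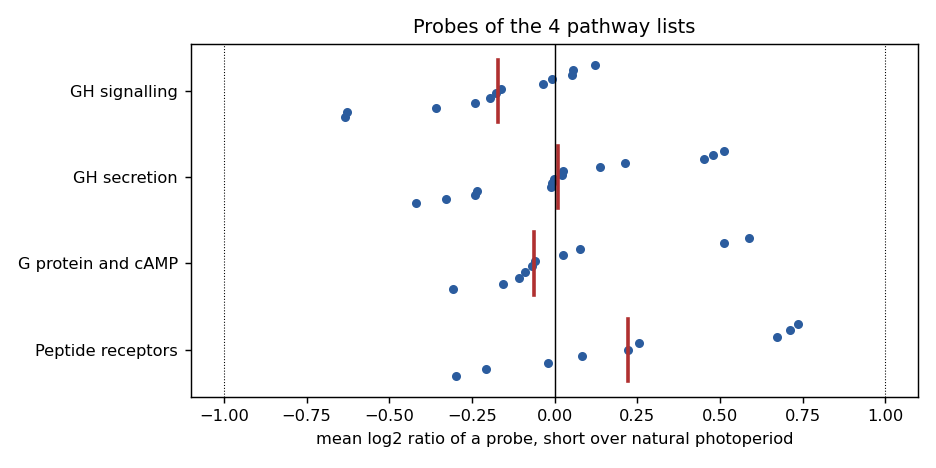
Mean log2 ratio over 3 arrays for each measured probe of the 4 pathway lists, with the median of a list as a red line and dotted lines at a 2-fold change. The probes stay between -0.63 and 0.74, all within the dotted lines.

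The array patterns most like those of the 2 receptors were found among 13895 other probes by the root mean square difference of the 3 log2 ratios. The probe closest to GHRHR was CYP1A1, a cytochrome P450 that oxidises aromatic compounds, with ratios of -3.02, -3.39 and -3.19 and a difference of 0.68. The next were an expressed sequence tag without a gene name (difference 1.63) and a cluster described as tenascin (1.86), whose ratios on replicate 3 were only -1.36 and -0.85. Closest to SSTR2 were an unnamed expressed sequence tag with 0.26, 1.35 and 1.46 (difference 0.16), an unnamed cluster (0.34) and a probe of the tight junction gene CLDN1 with 0.39, 1.46 and 0.81 (0.35). The ratios of 3 arrays are few points, and a like pattern is a description.

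Marker genes were read because bulk skin holds many cell types, and fewer cells of a type and less RNA per cell cannot be told apart. The 3 hair follicle keratin probes were higher in their means by 1.15 to 1.18 log2 units, with a summed log2 level of 15.84 to 16.95 in the natural and 17.64 to 17.72 in the short photoperiod goats. Of 4 measured keratinocyte probes, 3 were higher, that of KRT14 and both of TP63, and the DSP probe read -0.01. The sums were 15.68 to 16.50 and 16.50 to 16.76, and they rest mostly on the brighter KRT14 and DSP probes. KRT5 was well above background in all samples but its spot was flagged on 2 arrays. All 8 measured leukocyte probes, of only 4 genes, were lower on all 3 arrays, against 21.9% of all tested probes. Their sums were 16.83 to 17.07 and 16.21 to 16.59, and both CD4 probes were not well above background in Cy5. Of 11 dermal fibroblast probes, of 6 genes, 9 were lower, but 4 were lower with median centring. The 8 probes with a value on every array had sums of 17.21 to 17.78 and 17.37 to 17.54. The part of these shifts in the ratios of GHRHR and SSTR2 was not tested. Of the pituitary markers, the probes of PRL and CGA were, like those of GH, not well above background on any array. LHB, FSHB, POMC and 1 of 2 POU1F1 probes were measured, with sums of 13.67 to 13.81 and 13.94 to 14.16. Of these probes 5 were higher and 1 lower, but 3 and 3 with median centring. The POMC probes read 0.74 and 0.67, and the LHB probes -0.01 and 0.06. No gene of the neuroendocrine and Merkel cell list was found on the array. In the pancreas and gut list, the glucagon probes were measured, with sums of 10.17 to 10.64 and 10.75 to 11.23, and the single PPY probe was well above background on 3 arrays in Cy3 and 1 in Cy5.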

How the data were processed

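Skin RNA of 3 pairs of goats was measured on 3 two-colour Agilent sheep arrays. The deposited files, made by the authors with Agilent Feature Extraction 10.7.3.1, hold unnormalized spot intensities with their local background in Cy5 and Cy3, and the log10 ratio of the processed signals, which the authors' software normalized by lowess. The series' value table holds the authors' log2 ratio of Cy5 over Cy3. Intensities were corrected with normexp (offset 50) and loess within each array in R 4.3.3 with limma 3.58.1. Flagged outlier spots were dropped before repeated spots were averaged. The 14977 probes left with 2 or more arrays were tested against 0 with lmFit and eBayes, with Benjamini-Hochberg adjustment and a threshold of 0.05. Each ratio is the paired difference of 2 goats, as the paper's discussion says that each goat was compared with one of the same parent, and the methods' fold rule of 2 or 0.5 was applied to the mean. Levels per goat come from the separate channels after loess and Aquantile normalization. The fit of separate channels with the pairing used a correlation of 0.619 within spots.

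The members and lists were chosen with earlier results of these data known. Every probe of the members is named. Of each pathway list, up to 2 genes with the largest mean change in each direction are named, except that some results are not reported here, others were named after their values were seen, and the 3 probes most like GHRHR and SSTR2 are given. Ratios are given only where a probe, in any of its spots, was well above background in Cy3 and Cy5 on every array. The alternatives were other background corrections, Feature Extraction's log ratio, the value table, median centring, filters on dim probes, flagged spots kept, each array left out, eBayes with trend and robust, and separate channels with and without the pairing. Gene names are those of the array, and no coordinates are given because the files name no genome build. Figures were drawn with matplotlib 3.10.9. The tissue sections and qPCR were not analysed here.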

Additional observations from a re-analysis of the deposited data

How the results depend on the processing

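The mean log2 ratios of GHRHR, GHR, SST and SSTR2 each moved by less than 1 SD of the arrays under all 13 alternatives. So did the difference of SSTR2 and SST. For most alternatives this could not have been otherwise. Kept flags, the filters on dim probes and both fits of separate channels returned the same means. Leaving 1 of 3 arrays out cannot move a mean by 1 SD. The value table nearly repeated Feature Extraction's log ratio. The background corrections, that log ratio and median centring could have moved a mean further. GHRHR lay between -4.18 and -3.37, GHR between -0.35 and -0.17, SSTR2 between 0.85 and 1.50, SSTR2 minus SST between 0.92 and 1.27, and SST between -0.19 and 0.23, which includes both signs. With each replicate left out in turn, the number of members past 2-fold was 1 to 2, in place of 2, and it was 1 with median centring, where the mean of SSTR2 was under 2-fold. Of all tested probes, limma called 1, and it called 0 with Feature Extraction's log ratio, 14 with the value table, 1885 with median centring (1013 higher and 872 lower) and 0 to 0 with each replicate left out. The fit of separate channels with the replicate block called 161 probes and that with no replicate block, which ignores the pairing, called 0. Unadjusted p-values under 0.05 then numbered 2959 and 1081. The block left the mean ratios as they were. The cause of these differences was not tested. GH, not well above background on any array, limits what can be said of the ligand of GHR, and single spots carried GHRHR, SSTR2 and GHR.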
